A study of Mus musculus with 36 samples.

Results

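The response of brain to lipopolysaccharide (LPS, a cell wall component of Gram-negative bacteria) was set against that of heart, gene by gene, as the brain change minus the heart change. A change is the mean log2 intensity of the LPS arrays minus that of the mock arrays of the same tissue. The members are the 8367 genes, of 12394 named on the array, for which the same probe was measured in both tissues. Changes alone were compared, since a level in brain and a level in heart come from arrays normalised apart.

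The mice were female FVB transgenic animals that carry a luciferase reporter, 6 to 8 weeks old. LPS mice received 4 mg/kg LPS into the abdominal cavity and their tissues were taken 4 h later. LPS+genipin mice received the same LPS and then genipin, a compound from gardenia fruit at a dose that the labels do not state for the arrays. Mock mice were untreated, so handling and injection are not matched. Each group of each tissue had 3 one-colour arrays, which gives 12 LPS and mock arrays of brain and heart among 36 arrays of 4 tissues and 3 treatments. The labels name neither the mouse behind an array nor a link between brain and heart arrays of one number. The p-values therefore reflect array-to-array spread only, which may be technical.

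LPS is bound by LPS-binding protein and CD14 and passed to Toll-like receptor 4, whose adaptors start an NF-kB arm (cytokines, adhesion molecules, acute-phase proteins) and an interferon arm (antiviral genes, GTPases, antigen presentation). After LPS enters the abdomen, brain meets it mainly through its vessels, behind the blood-brain barrier, whereas heart capillaries lack such a barrier. Whole tissue was measured, so fewer cells of a type and less RNA per cell cannot be told apart.

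Libraries of some groups stood apart by transcripts of neighbouring tissue: mock brain (skeletal muscle), LPS heart (fat and atrium) and LPS brain (1 choroid plexus marker). LPS+genipin brain also stood apart, by the choroid plexus markers Kl and Folr1. These transcripts are kept apart in the results. In brain, the summed intensity of 4 skeletal muscle markers (4 of 4 measured) was 3416 to 3680 on the LPS arrays and 3749 to 4086 on the LPS+genipin arrays, against 112506 to 118985 on the mock arrays. In heart, 2 of 4 fat markers were measured, and they summed to 71391 to 79640 on the LPS arrays, 1672 to 1774 on the LPS+genipin arrays and 1686 to 1812 on the mock arrays. The one measured atrial marker of 3, Myl7, was saturated on all LPS heart arrays and read 679 to 773 on LPS+genipin and 1219 to 1414 on mock hearts. Choroid plexus markers in brain summed to 3184 to 4082 on LPS arrays, 68228 to 68622 on LPS+genipin arrays and 65976 to 66601 on mock arrays. That sum was carried by Ttr, whose change with LPS was -4.46 on the log2 scale from mock arrays at saturation. Kl had a change of -0.75, and Folr1 was at the floor on LPS and on mock brain arrays. On LPS+genipin brain arrays Kl stood 1.51 above mock, and Folr1 was off the floor, at least 0.65 above mock. No muscle, fat or atrial marker was at the floor. The tissue labels themselves were borne out: 2 neuronal markers summed to at least 114467 on every brain array, and 4 of 4 cardiomyocyte markers to at least 258197 on every heart array. For these reasons the LPS+genipin change from the same mock arrays is given beside many results. It shares the mock arrays with the LPS change, and no test was made between them. LPS+genipin mice also received genipin, so an effect of genipin and a different share of neighbouring tissue cannot be told apart on those arrays. What part neighbouring tissue had in any difference was not tested.

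**Figure D1:**
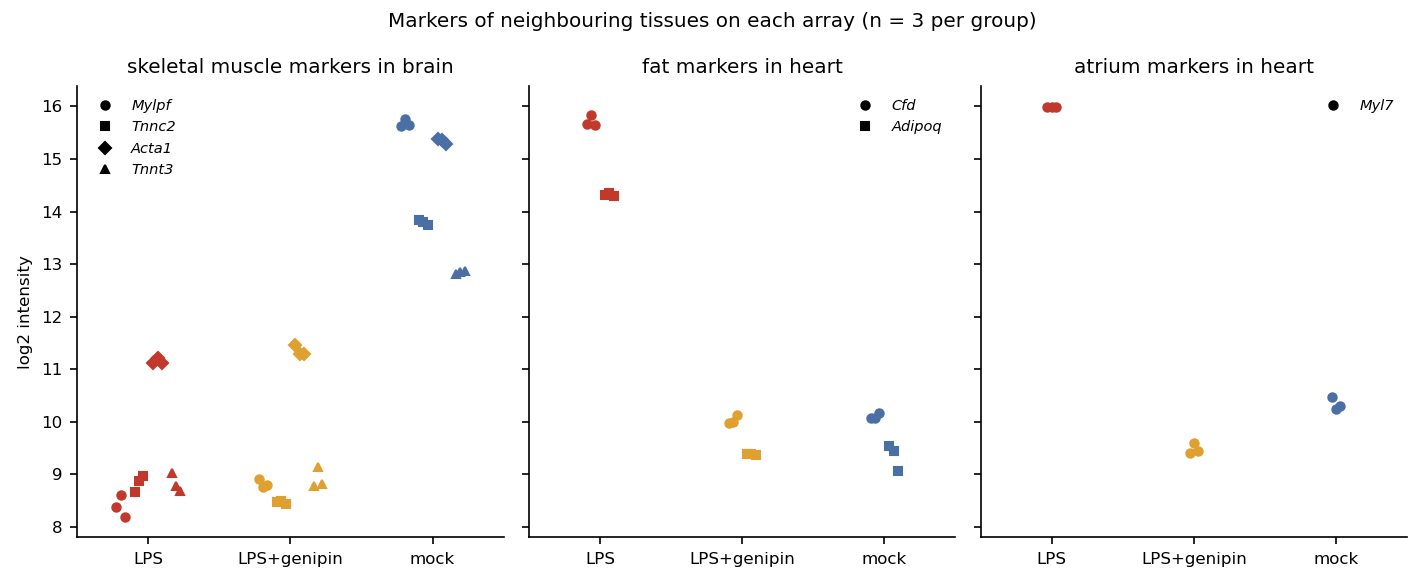
Markers of neighbouring tissues on each array: log2 intensity of skeletal muscle markers in brain and of fat and atrial markers in heart, by treatment, 1 point per array. Muscle markers were high on the mock brain arrays alone, and fat and atrial markers on the LPS heart arrays alone.

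Among the 8367 genes, 3152 (37.7%) had a brain change that differed from the heart change at an adjusted p under 0.05 (limma, Benjamini-Hochberg). The brain change was the higher in 1864 genes (22.3%) and the lower in 1288 (15.4%). A difference of at least 1 on the log2 scale was called for 571 genes, 239 higher (2.86%) and 332 lower (3.97%) in brain. One alternative centred arrays on their medians and then subtracted each tissue's median LPS change from its LPS arrays. With it, 47.9% of calls were higher in brain in place of 59.1%. That alternative also moved the median difference over the 8367 genes from positive to slightly negative. Such a shift by itself lowers the share called higher, so the split it gave is not independent evidence of balance. The balance of directions among small differences therefore depended on the scaling. A group whose 3 arrays all sat at the floor of 263 or at saturation gives only a bound; 197 differences are therefore bounds ("at least"), and 322 could not be sized. Of the 8045 genes that could be sized, 22.7% were called higher in brain and 15.1% lower, and counts within a gene list are to be read against these shares.

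In brain 1176 genes rose (14.1%) and 1095 fell (13.1%), and in heart 1626 rose (19.4%) and 2507 fell (30.0%). LPS and mock arrays did not overlap for 46.7% of genes in brain and 55.2% in heart, which is the background for each statement on overlap. Rises of at least 2-fold were called for 139 genes in brain and 374 in heart. Both tissues shared 84 of these, which is 60.4% of the brain genes and 22.5% of the heart genes. The difference could be sized for 71 of the 84: the rise was smaller in brain for 37, larger in brain for 11 and not called different for 23, with a median difference of -0.44 against 0.075 over all genes that could be sized.

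**Figure D2:**
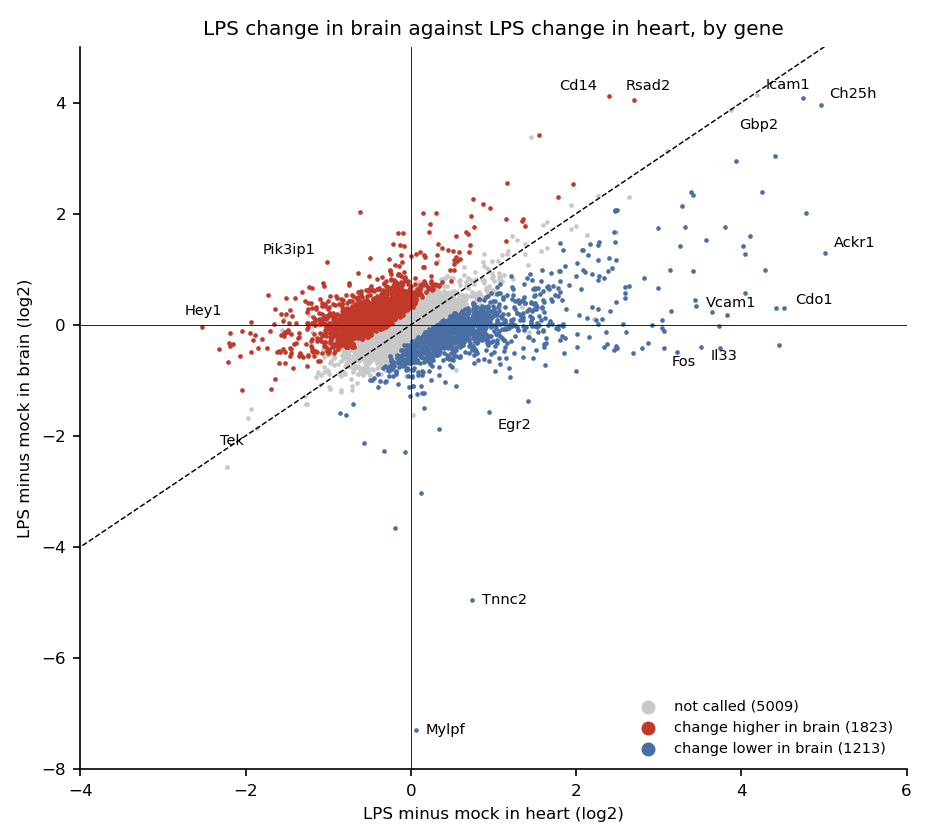
LPS change in brain (vertical axis, log2) against LPS change in heart (horizontal axis, log2) for the 8045 genes whose difference could be sized, bounds included at their bound. Red points are the 1823 genes with a change called higher in brain, blue points the 1213 called lower and grey points the 5009 not called; the dashed line marks equal changes.

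Of the 14 measured genes of LPS recognition, 8 rose in brain and 8 in heart. Of 12 members that could be sized (of 25 listed), 3 had the higher change in brain and 2 the lower, shares close to the 22.7% and 15.1% of all sized genes. Cd14, which hands LPS to its receptor, read 13.07, 13.32 and 13.26 (log2 intensity) on LPS brain arrays against 9.03, 9.19 and 9.07 on mock brain arrays. In heart it read 14.14, 14.21 and 14.16 with LPS against 11.91, 11.81 and 11.59 in mock. All LPS arrays lay above all mock arrays in both tissues, and the rise was 17.4-fold in brain and 5.28-fold in heart, a difference of 1.72 ± 0.14 on the log2 scale (SE, adjusted p = 1.1e-06). The adaptor Myd88 rose by 1.25 in brain and 2.14 in heart (difference -0.89 ± 0.13, adjusted p = 0.00019), and the kinase gene Irak2 by 0.64 and 1.48 (-0.84 ± 0.13, adjusted p = 0.00037). Tlr2, a receptor for bacterial lipoproteins, rose by at least 3.13 in brain, where the mock arrays were at the floor, and by 3.10 in heart. Lbp, the LPS-binding protein, rose by at least 1.99 in brain and by 4.52 in heart, so its difference could not be sized.

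NF-kB genes followed. Of 14 sized members, 10 had the lower change in brain and 1 the higher, with a median difference of -0.66; 11 of the measured members rose in brain and 13 in heart. Tifa, an adaptor that activates TRAF proteins, read 10.99, 10.83 and 11.13 on LPS brain arrays against 9.58, 9.42 and 9.36 on mock brain arrays. Its heart values were 11.60, 11.68 and 11.56 with LPS and 8.04, 8.04 and 8.05 in mock, with 2 mock arrays at the floor. The rise of 1.53 in brain was smaller than the 3.57 in heart (difference -2.04 ± 0.13, adjusted p = 1.5e-07). Tnip1, a partner of the A20 inhibitor, had changes of 0.46 and 1.69 in brain and heart, and Bcl3, an atypical inhibitor of the family, 1.17 and 2.27. Birc2, a ubiquitin ligase of TNF receptor complexes, did not pass the test in brain (0.00) and rose by 1.55 in heart, but a second probe of it gave a difference of -0.42 in place of -1.54. Nfkb2, the p100 subunit, was the member with the larger rise in brain (1.78 and 1.38, difference 0.40 ± 0.10, adjusted p = 0.0092), and this direction turned when a pseudocount replaced the floor (-0.05).

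Of 22 measured antiviral interferon genes, 18 rose in brain and 21 in heart. Of 16 sized members, 13 had the lower change in brain and 1 the higher, and the median change was 1.07 in brain and 2.13 in heart over these 22. Ifit3, which binds foreign RNA in complex with its relatives, rose by 2.38 in brain and 4.25 in heart (difference -1.87 ± 0.18, adjusted p = 6.7e-06). Ifih1, the cytosolic RNA sensor MDA5, rose by 1.74 and 2.99, and Ifi27 fell by 0.40 in brain and rose by 1.61 in heart. The widest contrast within the list was between Rsad2 and Cmpk2, which act on nucleotides in the antiviral response. Rsad2, the radical SAM enzyme viperin, read 12.15, 12.33 and 12.19 on LPS brain arrays against 8.19, 8.27 and 8.07 on mock brain arrays, and in heart 14.24, 14.15 and 14.18 against 11.37, 11.49 and 11.62. Cmpk2, a mitochondrial nucleotide kinase, read 13.07, 13.17 and 13.15 against 12.85, 12.86 and 12.97 in brain, and 14.10, 14.19 and 14.02 against 11.02, 10.94 and 10.92 in heart. The LPS and mock arrays did not overlap for either gene in either tissue, yet the difference was 1.35 ± 0.12 for Rsad2 (adjusted p = 4.3e-06) and -2.91 ± 0.11 for Cmpk2 (adjusted p = 9.7e-10). On the LPS+genipin arrays Rsad2 stood 0.62 above mock in brain and 0.81 in heart, and Cmpk2 0.16 and 0.96.

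Guanylate-binding proteins and immunity-related GTPases, which attack the vacuoles of intracellular pathogens, rose in both tissues for 7 of 7 measured members (of 18 listed). Of 6 that could be sized, 3 rose further in heart, 3 were not called different and none rose further in brain. Gbp2 read 12.96, 13 and 13.08 on LPS brain arrays against 9.06, 9.25 and 9.12 on mock brain arrays. In heart it read 15.63, 15.55 and 15.48 with LPS and 11.68, 11.68 and 11.69 in mock. The groups lay far apart in both tissues, with rises of 14.6-fold in brain and 14.6-fold in heart and a 95% interval of the difference from -0.23 to 0.23. With a pseudocount in place of the floor, the Gbp2 difference was -0.41 and was called (limma, adjusted p = 0.0044). Irgm1 rose by 2.31 and 2.27 (interval -0.33 to 0.42). Gbp3 rose by 3.04 in brain and 4.40 in heart (difference -1.37 ± 0.15, adjusted p = 1.7e-05), and Irgm2 by 2.33 and 3.42 (-1.08 ± 0.14, adjusted p = 8.6e-05).

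Interferon-stimulated genes commonly carry a binding site for interferon-activated factors before their start, so the 250 bases before each start site (RefSeq, GRCm38.p6) were searched on both strands for GAAA, any 2 bases and GAAA again. The run was found in 2.98% of 32851 windows, and for 2.69% of the 6806 compared genes with an entry. It was found for 5 of the 6 measured GTPase genes with an entry and for 4 of 18 antiviral genes with an entry. The windows shown are those of GTPases with no called difference (Gbp2, Irgm1), of GTPases with a larger change in heart (Gbp3, Irgm2), and of the antiviral genes Ifit3 (larger in heart) and Rsad2 (larger in brain). Capitals mark the match on either strand, and each sequence reads toward its gene's start.
Gbp2, chr3:142620413-142620662, plus strand: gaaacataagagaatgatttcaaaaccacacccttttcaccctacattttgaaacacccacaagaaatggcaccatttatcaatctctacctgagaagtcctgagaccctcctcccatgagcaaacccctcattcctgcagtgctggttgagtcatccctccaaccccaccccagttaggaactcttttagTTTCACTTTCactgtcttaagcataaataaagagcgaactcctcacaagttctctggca
Irgm1, chr11:48871421-48871670, minus strand: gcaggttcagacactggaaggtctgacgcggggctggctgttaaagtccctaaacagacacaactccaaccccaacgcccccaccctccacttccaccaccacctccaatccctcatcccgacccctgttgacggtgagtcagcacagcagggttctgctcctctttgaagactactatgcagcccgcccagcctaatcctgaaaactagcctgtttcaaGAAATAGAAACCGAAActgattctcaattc
Gbp3, chr3:142559794-142560043, plus strand: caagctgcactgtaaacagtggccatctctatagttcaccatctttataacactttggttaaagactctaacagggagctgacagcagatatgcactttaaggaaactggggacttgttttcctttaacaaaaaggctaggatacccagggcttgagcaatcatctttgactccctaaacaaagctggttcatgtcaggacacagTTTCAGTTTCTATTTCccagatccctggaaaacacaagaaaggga
Irgm2, chr11:58214727-58214976, plus strand: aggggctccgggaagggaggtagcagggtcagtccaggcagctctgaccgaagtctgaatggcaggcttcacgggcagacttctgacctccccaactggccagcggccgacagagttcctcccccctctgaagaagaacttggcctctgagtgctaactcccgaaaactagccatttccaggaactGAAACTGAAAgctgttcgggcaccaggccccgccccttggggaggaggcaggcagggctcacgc
Ifit3, chr19:34583279-34583528, plus strand: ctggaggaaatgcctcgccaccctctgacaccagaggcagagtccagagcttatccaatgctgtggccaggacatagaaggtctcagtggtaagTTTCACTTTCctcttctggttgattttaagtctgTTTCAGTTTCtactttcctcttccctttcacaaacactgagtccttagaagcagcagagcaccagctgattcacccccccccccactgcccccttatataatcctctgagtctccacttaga
Rsad2, chr12:26456453-26456702, minus strand: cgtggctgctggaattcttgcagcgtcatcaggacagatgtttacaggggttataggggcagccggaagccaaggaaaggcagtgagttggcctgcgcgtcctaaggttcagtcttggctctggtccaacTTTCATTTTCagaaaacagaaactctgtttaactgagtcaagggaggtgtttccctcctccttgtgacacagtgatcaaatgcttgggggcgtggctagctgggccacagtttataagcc
Only windows with a match are shown, for genes chosen after their values were seen. That the match stood before genes of each kind of difference follows from this choice. The share of genes with a match was not counted by kind of difference. Gbp3 has 2 start sites in the table and the one with a match is shown.

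**Figure D3:**
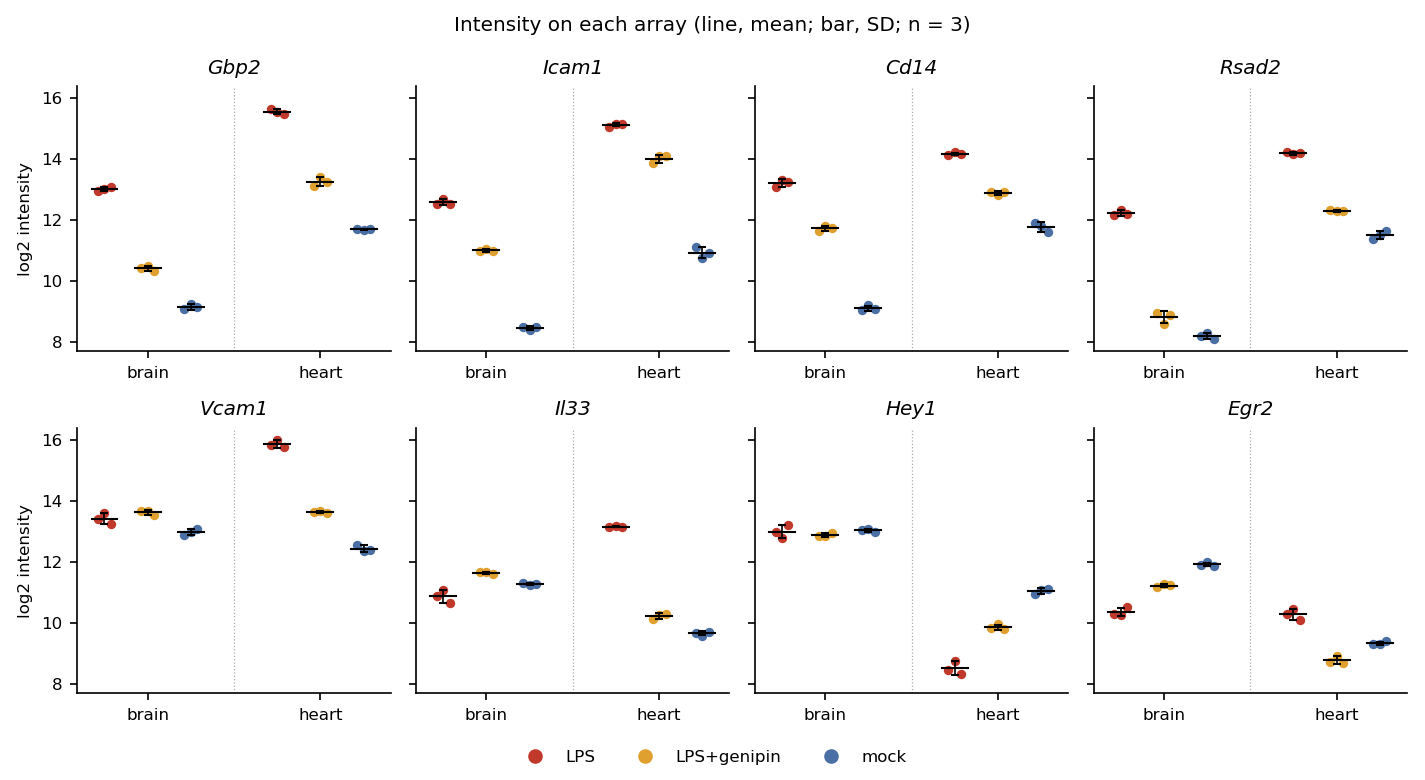
Log2 intensity on each array of 8 genes, brain left and heart right in each panel, with LPS, LPS+genipin and mock arrays; lines are means and bars SD (n = 3). Gbp2 and Icam1 had no called difference between tissues, Cd14 and Rsad2 more in brain, Vcam1 and Il33 more in heart, Hey1 fell in heart alone and Egr2 fell in brain and rose in heart with LPS.

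Of 15 sized transcription factors and inhibitors of the IRF, STAT and SOCS list, 6 had the lower change in brain and 3 the higher, against 15.1% and 22.7% of all sized genes. Socs3, the feedback inhibitor of IL-6 family signalling, rose by 2.94 in brain and 3.93 in heart (difference -0.99 ± 0.12, adjusted p = 4e-05). Socs1, the inhibitor of interferon signalling, read 8.50, 8.25 and 8.40 on LPS brain arrays and 8.40, 8.29 and 8.42 on mock brain arrays, which overlap. In heart it read 10.51, 10.34 and 10.94 with LPS against 9.01, 8.61 and 8.66 in mock, and the difference was -1.82 ± 0.21 (adjusted p = 2.7e-05). Irf8, a factor of myeloid cells, had changes of -0.17 in brain, not called, and 2.01 in heart (difference -2.18 ± 0.21, adjusted p = 6.1e-06), against 0.22 and 0.23 on the LPS+genipin arrays. On the other side stood Stat3, the main IL-6 effector (1.17 and 0.52), Irf7 (0.69 and 0.27) and Stat6 (0.25, not called, and -0.49). In MHC class I presentation, 7 of 11 sized members had the lower change in brain and none the higher, with Psmb9, an immunoproteasome subunit, at 0.81 and 2.26 and Tapbpl, a peptide editor, at 0.52 and 1.78.

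Among the 9 chemokine genes measured of 31 listed, 4 had the lower change in brain and none the higher. Ackr1, a receptor that takes up chemokines on venules, read 14.35, 14.60 and 14.61 on LPS brain arrays against 13.28, 13.28 and 13.15 on mock brain arrays. Its heart values were 13.33, 13.48 and 13.42 with LPS against 8.44, 8.39 and 8.36 in mock, a rise of 5.02 beside 1.28 in brain (difference -3.73 ± 0.12, adjusted p = 5.7e-10). Cx3cl1, the ligand of the microglial receptor CX3CR1, rose by 1.68 in heart and had a change of 0.02 in brain, where 1 LPS and 1 mock array were saturated. Cxcl12, which keeps leukocytes at vessel walls, fell in both tissues, by 2.57 in brain and by 2.22 in heart, with no called difference (interval -0.71 to 0.02). Few cytokine genes were measured in both tissues (10 of 32). Il33, an alarm cytokine stored in nuclei, fell by 0.41 in brain and rose by 3.51 in heart (difference -3.91 ± 0.13, adjusted p = 6.9e-10); on the LPS+genipin arrays it stood at 0.37 and 0.57. Il16, a chemoattractant for CD4 cells, rose by 0.49 in brain and fell by 0.65 in heart, and Vegfa had changes of -0.31, not called, and -1.04. Of 14 sized cytokine receptors, 4 had the lower change in brain and none the higher: Il17ra (0.56 and 2.59), whose second probe gave a difference of -0.26 in place of -2.02, Ifnar2 (0.02, not called, and 1.20), Il2rg (0.64 and 1.24) and Il1r1 (1.34 and 1.84).

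Acute-phase proteins rose in both tissues for 6 of 6 measured members (of 31 listed). Lcn2, the iron-withholding lipocalin, read 15.77, 15.69 and 15.85 on LPS brain arrays and 8.15, 8.42 and 8.18 on mock brain arrays, a 184-fold rise. In heart it was saturated with LPS and read 9.89, 9.86 and 9.81 in mock, a rise of at least 70.6-fold, so the difference could not be sized. Serpina3n, a protease inhibitor of reactive astrocytes and liver, rose by 0.98 in brain and by at least 4.28 in heart. Serpina3f had rises of 1.76 and 3.80, and Cp, the copper protein ceruloplasmin, rose further in brain (2.30 and 1.78, difference 0.52 ± 0.12, adjusted p = 0.006).

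Of 13 sized genes of endothelial adhesion and activation, 6 had the lower change in brain, 4 the higher and 3 were not called. The adhesion molecule Icam1 read 12.52, 12.69 and 12.52 on LPS brain arrays against 8.49, 8.37 and 8.47 on mock brain arrays, and in heart 15.06, 15.15 and 15.13 with LPS against 11.10, 10.75 and 10.92 in mock. Its rise was 17.6-fold in brain and 18.3-fold in heart, with an interval of the difference from -0.34 to 0.23. With a pseudocount in place of the floor, the Icam1 difference was -0.64 and was called (limma, adjusted p = 0.00086). Vcam1, the companion molecule that arrests leukocytes through integrin alpha 4, read 13.40, 13.60 and 13.24 on LPS brain arrays against 12.88, 12.97 and 13.07 on mock brain arrays, close but not overlapping. In heart it read 15.84, 16 and 15.75 with LPS, 1 array saturated, against 12.55, 12.35 and 12.38 in mock. The Vcam1 rise was 1.36-fold in brain and 10.8-fold in heart (difference -3.0 ± 0.15, adjusted p = 1.7e-08), and on LPS+genipin arrays its changes were 0.66 and 1.21. The 4 members with the higher change in brain were Nos3, which fell by 0.51 in brain and by 1.00 in heart, and 3 that rose further in brain. Adamts1 and Adamts9, secreted proteases, rose by 2.10 and 1.75 in brain and by 0.96 and 0.76 in heart, and Angpt2, the antagonist of the TIE2 receptor, by 1.90 in brain and 1.15 in heart.

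The quiescence list, of angiopoietin and VEGF receptors and their partners, fell in both tissues for many members. In brain 13 of 28 fell and in heart 16 of 28, against 13.1% and 30.0% of all genes. By the test of the difference 10 members were higher in brain and 4 lower, against 22.7% and 15.1% of all sized genes. The share lower was close to that of all sized genes. Tek, the TIE2 receptor itself, read 8.26, 8.59 and 8.53 on LPS brain arrays against 10.38, 10.40 and 10.19 on mock brain arrays, and in heart 10.68, 11.05 and 10.72 against 12.62, 12.59 and 12.82. Tek fell by 1.86 in both, with an interval of the difference from -0.37 to 0.37. With a pseudocount in place of the floor, the Tek difference was 0.39 and was called (limma, adjusted p = 0.039). Kdr, the main VEGF receptor, fell by 1.43 in brain and by 1.26 in heart. Hey1, a Notch target, had the largest positive difference outside the neighbouring-tissue lists among genes with no group at a limit. It read 12.97, 12.78 and 13.21 on LPS brain arrays and 13.05, 13.07 and 12.97 on mock brain arrays, which overlap. In heart it read 8.44, 8.75 and 8.33 with LPS against 10.93, 11.09 and 11.10 in mock (difference 2.49 ± 0.17, adjusted p = 3.9e-07). Ptprb, the phosphatase that restrains TIE2, fell by 0.33 in brain and by 2.20 in heart, and Egfl7, a secreted vessel factor, by 0.49 and by 1.93. Gpihbp1, which carries lipoprotein lipase across capillaries, had changes of 0.15 in brain, not called, and -1.06 in heart. The endothelial marker sum itself was 2522 to 2861 on LPS and 2981 to 3115 on mock brain arrays, and 17294 to 17829 on LPS and 21094 to 22849 on mock heart arrays. Tek is itself 1 of the 3 summed markers: in brain Cdh5 had a change of 1.22, Pecam1 -0.18 and Tek -1.86, and in heart 0.17, -0.06 and -1.86.

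Immediate early genes, the first transcripts after a stimulus, rose for 23 of 28 members in heart and for 16 in brain, with 6 falling in brain; the difference was lower in brain for 15 and higher for 4. Fos, part of the AP-1 factor, read 12.98, 13.01 and 12.56 on LPS brain arrays against 13.26, 13.31 and 13.22 on mock brain arrays. In heart it read 12.63, 12.68 and 12.80 with LPS against 9.65, 9.81 and 9.47 in mock. It fell by 0.41 in brain and rose by 3.06 in heart (difference -3.47 ± 0.17, adjusted p = 1.5e-08). Egr1 was saturated on the mock brain arrays, so its fall there was at least 0.42, beside a rise of 2.80 in heart. Fosb and Nr4a1 fell in brain (by 1.11 and by 0.54) and rose in heart (0.55 and 0.76). The 4 were Klf4, Maff, Zfp36, which destabilises cytokine mRNAs (2.53 and 1.96), and Ccn1, a matricellular protein (1.87 and 1.35). With a pseudocount in place of the floor, the differences of Zfp36 (adjusted p = 0.0976) and Ccn1 (adjusted p = 0.15) were no longer called by limma.

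Of 23 measured glucocorticoid-responsive genes, the change could be sized for 20 in brain, of which 16 rose, and for 22 in heart, of which 18 rose. Of 19 sized differences, 6 were higher in brain and 5 lower. Map3k6 read 11.06, 10.72 and 10.78 on LPS brain arrays against 8.61, 8.58 and 8.60 on mock brain arrays, and in heart 11.74, 11.62 and 12.11 against 10.92, 11.33 and 10.97. That kinase gene rose by 2.26 in brain and 0.75 in heart (difference 1.51 ± 0.20, adjusted p = 8.9e-05). Dusp1, a phosphatase that switches off MAP kinases, had a change of 0.03 in brain, not called, and rose by 1.53 in heart. Fkbp5, a chaperone of the receptor, rose alike (1.32 and 1.18, interval -0.23 to 0.51). Of 16 clock genes, 8 had the higher change in brain and 2 the lower, against 22.7% and 15.1% of all sized genes. None of the 16 fell in brain and 9 fell in heart, against 13.1% and 30.0% of all genes. Dbp and Nr1d2, output genes of the clock, fell in heart by 1.07 and by 0.81 and were not called in brain. Nfil3, the repressor that opposes Dbp, rose by 1.23 in heart and had a change of 0.03 in brain. Of the 8, Per3 had a difference of 1.27 by its chosen probe and 0.01 by a second probe, and Csnk1e 0.81 and -0.10.

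Calprotectin and granule genes of neutrophils had a median difference of -2.60 over 5 sized members, 4 of them lower in brain. S100a9 read 10.49, 10.31 and 10.43 on LPS brain arrays against 9.07, 9.18 and 9.17 on mock brain arrays, and in heart 14.02, 13.87 and 13.67 against 9.81, 9.69 and 9.92. Its rise was 2.41-fold in brain and 16.5-fold in heart (difference -2.78 ± 0.14, adjusted p = 1.7e-08), with LPS+genipin changes of 1.5 and 3.01. The 3 neutrophil markers summed to 39892 to 45109 on LPS, 16747 to 18012 on LPS+genipin and 2284 to 2488 on mock heart arrays. Ltf, lactoferrin of secondary granules, read 8.37, 8.72 and 8.79 on LPS and 8.40, 8.21 and 8.38 on mock brain arrays, which overlap, and rose by 4.42 in heart but stood at 0.38 there on LPS+genipin arrays. Homeostatic microglia and macrophage genes fell for 12 of 24 members in brain, against 13.1% of all genes. In heart 8 rose and 9 fell, against 19.4% and 30.0% of all genes. Of 23 sized members, 9 had the lower change in brain, 3 the higher and 11 were not called. Among all sized genes 15.1% were lower and 22.7% higher. The 3 were Rgs10 (difference 0.72), C1qa (0.58) and C1qb (0.51). Tmem119, a microglial marker, read 9.92, 9.67 and 9.70 on LPS brain arrays against 11.21, 10.98 and 11.20 on mock brain arrays, and in heart 11.15, 10.89 and 10.80 against 9.26, 9.53 and 9.82. It fell by 1.37 in brain and rose by 1.41 in heart (difference -2.78 ± 0.20, adjusted p = 4.5e-07), and stood at -0.63 and -0.45 on LPS+genipin arrays. Adgre1, a macrophage surface receptor, fell by 1.23 in brain and was not called in heart (0.13). The 3 microglial markers summed to 2923 to 3179 on LPS, 6125 to 6243 on LPS+genipin and 8928 to 9389 on mock brain arrays.

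Genes of energy supply and excitability were next. Of 21 sized members of the fatty acid oxidation list, 8 had the higher change in brain and 2 the lower. Ppargc1a, the coactivator that drives mitochondrial genes, read 10.26, 10.33 and 10.45 on LPS brain arrays against 10.09, 10.10 and 10.00 on mock brain arrays, and in heart 8.90, 8.99 and 8.82 against 10.50, 10.55 and 10.61. Ppargc1a rose by 0.28 in brain and fell by 1.65 in heart (difference 1.93 ± 0.11, adjusted p = 5.7e-08), and its relative Ppargc1b had changes of 0.04, not called, and -1.48. Pdk4, which blocks pyruvate oxidation, and Angptl4, an inhibitor of lipoprotein lipase, rose further in heart (0.15, not called, and 1.44 for Pdk4, 2.40 and 3.39 for Angptl4). Oxidative phosphorylation subunits could be sized for only 24 of 46 measured members, because many were saturated; 6 were higher in brain and none lower, and the share higher was close to the 22.7% of all sized genes. Of 17 sized cardiac channel and calcium-handling genes, 7 had the higher change in brain and 2 the lower, Kcnj3 (-1.15, also on the atrial list) and Cacna2d1 (-0.44). A second probe of Kcnj3 gave a difference of -0.25. Cacnb2, one of the 7, had a difference of 0.86 by its chosen probe and -0.01 by a second probe. Of 17 that could be sized in heart itself, 9 fell, against 30.0% of all genes. Kcnip2, a subunit of the transient outward current, fell by 0.69 in brain and by 1.59 in heart, and Kcnj12, an inward rectifier, was not called in brain (0.10) and fell by 1.16 in heart. On LPS+genipin hearts Kcnip2 stood at 0.14 and Kcnj12 at -0.23.

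Stress and transport genes gave mixed pictures. Of 19 sized antioxidant genes, 6 had the lower change in brain and none the higher, led by Gpx3, a secreted peroxidase (-0.39 and 2.01), and Tkt, a pentose phosphate enzyme (-0.05, not called, and 1.52). Asns, the asparagine synthetase gene that ATF4 controls, read 14.47, 14.75 and 14.63 on LPS and 14.65, 14.59 and 14.59 on mock brain arrays, which overlap, and rose by 2.57 in heart. On LPS+genipin hearts these 3 genes stood at 0.26, -0.14 and 0.28. Slc7a5, an amino acid carrier of the blood-brain barrier, was not called in brain (-0.10) and rose by 1.6 in heart, whereas Tfrc, the transferrin receptor, rose by 0.27 in brain and fell by 0.66 in heart. Slc40a1, the iron exporter ferroportin, fell in both, by 1.62 in brain and by 0.79 in heart. In the matrix list, 10 of 25 sized members were lower in brain and 7 higher, against 15.1% and 22.7% of all sized genes. Cd44, a hyaluronan receptor, rose by 0.67 in brain and 2.99 in heart. Mmp14, a membrane protease, was not called in brain (0.08) and rose by 1.58 in heart. Col4a1, a basement membrane collagen, rose by 1.09 in brain and 0.52 in heart.

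**Figure D4:**
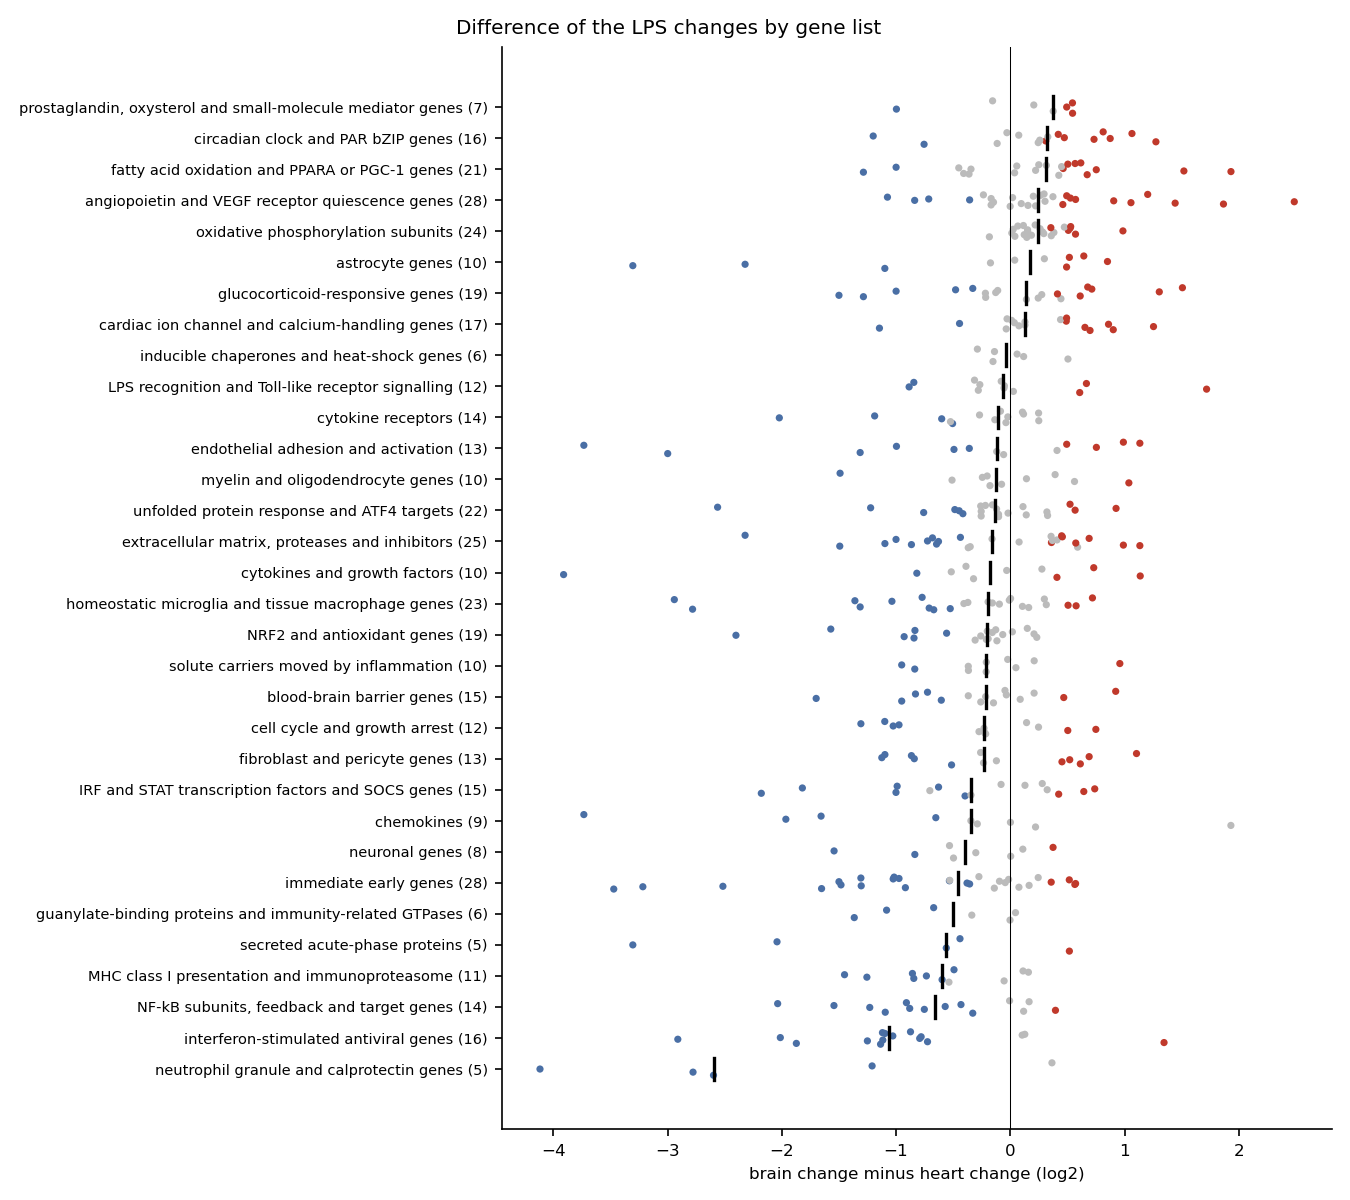
Brain change minus heart change (log2) for the sized members of each of 32 gene lists, with the number sized in brackets; red points were called higher in brain, blue points lower, grey points not called, and black bars are medians. The medians ran between -2.60 for neutrophil genes and 0.38 for small-molecule mediator genes.

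Opposite changes, called in both tissues, were found for 395 genes: 266 rose in brain and fell in heart (3.18% of all), and 129 fell in brain and rose in heart (1.54%). This count fell to 259, 254 and 232 when mock brain array 1, 2 or 3 was left out, and the brain calls fell to 1496 without mock brain array 3. The mock brain arrays had the smallest spread, with a median SD of 0.058 (log2) against 0.11 to 0.14 in the other groups compared. The cause of the drop was not tested. Pik3ip1, an inhibitor of PI3 kinase, read 11.78, 11.91 and 12.12 on LPS brain arrays against 10.80, 10.81 and 10.81 on mock brain arrays, and in heart 10.19, 10.43 and 9.98 against 11.17, 11.22 and 11.27. It rose by 1.13 in brain and fell by 1.02 in heart (difference 2.15 ± 0.16, adjusted p = 6.8e-07). Cited4, a coactivator linked to growth of heart muscle, followed with changes of 0.68 and -1.24. In the reverse direction, Egr2, an activity-dependent factor, read 10.28, 10.25 and 10.50 on LPS brain arrays against 11.90, 11.98 and 11.87 on mock brain arrays, and in heart 10.29, 10.44 and 10.08 against 9.31, 9.29 and 9.39. It fell by 1.57 in brain and rose by 0.94 in heart (difference -2.52 ± 0.14, adjusted p = 4.8e-08). Tpm2, a tropomyosin of skeletal and smooth muscle, fell by 0.93 in brain, where muscle markers also stood higher on mock arrays, and rose by 1.20 in heart. All 8 named genes that rose in heart had heart values between -0.64 and 0.51 on LPS+genipin arrays, and those of the 8 that fell in heart lay between -0.78 and 0.56.

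**Figure D5:**
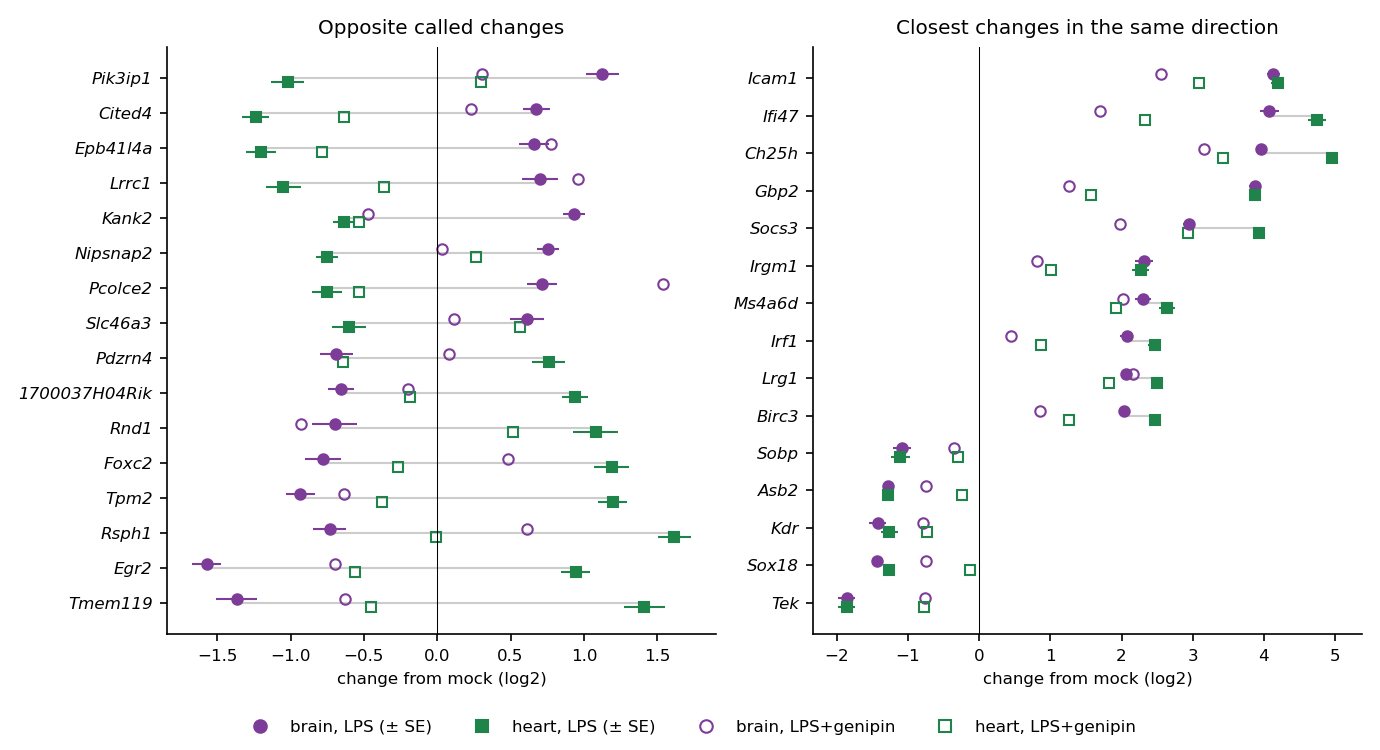
Changes from mock (log2) in brain (circles) and heart (squares) for the 16 named genes with opposite called changes and the 15 with the closest changes in one direction; filled symbols are LPS with SE, open symbols LPS+genipin from the same mock arrays. The filled symbols lie on either side of 0 in the left panel; in the right panel they differ by 1.00 for Ch25h (3.96 in brain and 4.96 in heart) and by less for the other genes.

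Outside the lists, the largest negative differences belonged to genes that rose in heart and little in brain. Cdo1, a cysteine-oxidising enzyme, read 11.75, 11.70 and 12.09 on LPS brain arrays against 11.69, 11.34 and 11.61 on mock brain arrays, and in heart 13.63, 13.51 and 13.42 against 9.0, 9.0 and 9.0. Its change was not called in brain (0.30) and 23-fold in heart (difference -4.22 ± 0.16, adjusted p = 1.5e-09). Prkar2b, a regulatory subunit of protein kinase A, had changes of -0.42 and 3.74, with a second probe at a difference of -1.78 in place of -4.16. Mybphl, a myosin-binding protein known from atria, had 0.34 and 3.45. On LPS+genipin hearts these 3 genes stood at 0.63, -0.62 and -0.09 from mock. What part fat or atrial tissue had in them was not tested. Pfkfb3, a driver of glycolysis, rose by 0.57 in brain and 4.05 in heart, and stood at 2.92 on LPS+genipin hearts. The part of neighbouring tissue in its change was not tested either. Lrrc8e, a subunit of volume-regulated anion channels, was the one of the 12 largest positive differences that exceeded 2 in brain (2.02, beside 0.15, not called, in heart).

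Transcripts of neighbouring tissue, held in 13 lists, moved as follows. Of 21 sized skeletal muscle transcripts, 13 had the lower change in brain and 1 the higher, with Mylpf, a fast-muscle myosin light chain, falling by 7.29 in brain beside 0.06, not called, in heart, and Tnnc2, fast troponin C, with a change of -4.95 in brain. The LPS+genipin brains gave -6.86 and -5.32 from the same mock arrays. Asb2, which the closest-change rule names for falls with no called difference (1.28 in brain and 1.29 in heart), is on this muscle list. Of 25 sized fat transcripts, 9 were lower in brain and 6 higher, against 15.1% and 22.7% of all sized genes. Fasn, fatty acid synthase, was not called in brain (0.18) and rose by 3.82 in heart, against 0.34 on LPS+genipin hearts. Of 8 atrial transcripts, 7 were lower in brain and none higher, with Myl4, the atrial light chain, rising by at least 4.46 in heart, and Dkk3 by 3.73, against -0.18 and -0.59 on LPS+genipin hearts. Of 7 choroid plexus transcripts, 4 were lower in brain and 2 higher (Igf2 by 0.90 and Rdh5 by 0.52), and 1 rose and 1 fell in brain itself. Ecrg4, one of the 4, fell by 0.83 in brain and rose by 2.00 in heart. Of 3 sized hepatocyte transcripts, 2 were higher in brain and none lower. All 3 rose in brain, and in heart 1 rose and 2 fell. The differences were 2.63 for Alb and 1.81 for Apoa1, against 1.91 and 1.45 with the floor at the 10th percentile. Thymus, pituitary, striatal and cerebellar lists each had 1 member higher in brain. Epicardial and striatal lists each had 1 lower. The lung, hypothalamic and olfactory lists had no sized member called.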

How the data were processed

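The authors deposited 1 table of intensities for 36 one-colour Cy5 arrays; labelled RNA was made from 5 µg of total RNA, per the labels' protocols. The submitters' processing notes name limma; the scanner, background correction and probe filter are not stated there. The deposited intensities of a tissue's 9 arrays share nearly the same sorted values, so they were taken as already quantile normalised within tissue. Of 18183 probes, 14817 have 1 gene symbol and 3366 none; 2318 symbols were updated through RefSeq.

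Intensities were raised to 263 (the 5th percentile of all values) and log2 transformed. For each gene the probe with the highest mean over the 4 groups, among those measured in both tissues, was kept. limma 3.58.1 (R 4.3.3) fitted 4 group means to 12 arrays, with moderated two-sided tests of the 3 contrasts and Benjamini-Hochberg adjustment over 8367 genes at 0.05. Groups with all arrays at the floor or at 60000 or above were treated as limits. The precision is limited by 3 arrays per group.

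Members and lists were chosen with earlier results of these data known. Named genes are the 12 largest differences each way, the 8 largest opposite changes each way, the 10 and 5 closest changes, and in each list up to 4 called members each way (6 in neighbouring-tissue lists). Tlr2, Lbp, Lcn2, Cxcl12, Fkbp5, Nr4a1, Nr1d2 and the 6 promoters shown were chosen after their values were seen. Alternatives covered the floor, pseudocount, normalisation, centring, probe choice, spread, arrays in the fit, replicate block and leaving out each array.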

Additional observations from a re-analysis of the deposited data

Results flagged for a closer look

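The brain and heart changes differed, by the test of the difference itself, for 1864 genes with the higher change in brain and 1288 with the lower. Of the genes called in both tissues with opposite signs, 8 that rose in brain and fell in heart were singled out by size: the differences were 2.15 for Pik3ip1, 1.91 for Cited4, 1.86 for Epb41l4a, 1.75 for Lrrc1, 1.57 for Kank2, 1.51 for Nipsnap2, 1.46 for Pcolce2 and 1.22 for Slc46a3. The 8 that fell in brain and rose in heart had differences of -2.78 for Tmem119, -2.52 for Egr2, -2.35 for Rsph1, -2.13 for Tpm2, -1.97 for Foxc2, -1.78 for Rnd1, -1.60 for 1700037H04Rik and -1.45 for Pdzrn4. For Rsph1 and Rnd1, 2 of 3 mock heart arrays were at the floor. Kank2 has a second probe, with a difference of 1.30.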

How the results depend on the processing

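Of 227 named genes, 218 were called different, and 208 of these kept their direction and call without each of the 12 arrays in turn; the other 10 lost the call at least once. Leaving out each array gave 2606 to 3190 genes called, 1515 to 1833 higher, 1091 to 1403 lower, 565 to 603 with a difference of at least 1, 232 to 440 opposite, 1496 to 2559 called in brain and 3586 to 4273 in heart. Requiring a difference beyond 0.5 in the test left 589 calls (251 higher, 338 lower), 4 opposite, 228 in brain and 801 in heart. With all 36 arrays in the fit 600 genes were opposite. With LPS+genipin arrays in place of LPS arrays, an alternative chosen after seeing the data, there were 1686 calls (1096 higher, 590 lower), 156 of at least 1, 160 opposite, 1384 in brain and 2591 in heart; the cause was not tested. Whether replicate numbers pair the samples could not be decided, since each deviation is from a mean of only 3 arrays. Deviations of same-numbered LPS brain and heart arrays correlated at 0.46, 0.06 and 0.13, and of mock arrays at -0.23, -0.06 and -0.07. With the replicate block there were 3024 calls (1778 higher, 1246 lower), 570 of at least 1, 365 opposite, 2165 in brain and 4074 in heart. With a random block for arrays of the same treatment and replicate number, which the labels do not tie to a mouse, there were 3276 calls. Differences that changed sign belonged, except for Nfkb2 (0.40, and -0.050 with the pseudocount), to genes near 0 that were not called. With the pseudocount they were Irgm1 (-0.13), Kdr (0.23), Sobp (-0.13), Sox18 (0.20) and Tek (0.39, then called). With joint quantile normalisation they were Asb2 (-0.077), Gbp2 (0.043), Irgm1 (-0.22) and Tek (0.16). With centred arrays they were Asb2 (-0.069), Irgm1 (-0.030) and Sobp (-0.056). Asb2 was -0.096 with the floor at the 1st percentile and -0.096 with no floor, and Tek 0.044 with the floor at the 10th. Without 1 array, Asb2 ranged over -0.054 to 0.044, Gbp2 -0.043 to 0.050, Icam1 -0.15 to 0.028, Irgm1 -0.037 to 0.18, Sobp -0.074 to 0.18 and Tek -0.072 to 0.12. With the pseudocount the rises of Gbp2 (-0.41) and Icam1 (-0.64) were called smaller in brain, so the closeness of those rises holds on the floored log2 scale. The LPS+genipin alternative was run for counts, not for single genes. Genes near the floor or saturation have compressed changes, which limits precision.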
